A study of Mus musculus with 16 samples.

Results

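To describe the open chromatin that was found in brown adipose tissue and in no other organ, 5448 regions were chosen from the 149835 unique regions of the fed brown adipose list. The members were selected on the deposited values themselves. A member had a -log10 q-value of at least 2 in fed brown adipose, overlapped by at least 1 bp a region with a -log10 q-value of at least 2 in fasting brown adipose, and overlapped no deposited peak of liver, muscle, white adipose, spleen, heart, lung or kidney. The 16 lists of the series held 3007809 unique regions in all. These presence and absence calls are therefore a description and are not tested. The lists come from ATAC-Seq, where a transposase cuts and tags DNA that is not packed into nucleosomes, of 8 tissues of male C57BL/6 mice. The mice were bought at an age of 12 weeks and had either free access to chow (fed) or 24 h without food (fasting). Tissue from 3 mice of the same state was pooled for each library. With 1 library per tissue and state there is no replicate error, and no test between tissues or states was possible.

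Brown adipose tissue burns fuel to make heat. Its adipocytes carry many mitochondria, and uncoupling protein 1 (Ucp1) lets protons leak back across the inner mitochondrial membrane so that the energy of oxidation is released as warmth. Cold acts through sympathetic nerves, noradrenaline and cAMP, and the identity of the cells depends on factors such as PPARG, EBF2, PRDM16 and C/EBP proteins. White adipocytes share the fat storage genes but store energy rather than burn it. Open regions away from gene starts are often enhancers, which are the most cell-type-restricted part of the accessible genome.

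The sequences around the summits of the strongest members, and of the strongest member within 100 kb of each of 4 thermogenic genes, are shown first because the positions, ranks and motifs described afterwards refer to them. Each is 151 bases of GRCm38 from RefSeq, centred on the fed summit unless the region ended sooner, plus strand, 5′ to 3′. Capitals mark the letters CCCNNGGG (early B-cell factor, EBF), TTGGCA (nuclear factor I half-site), TTGCNNAA (C/EBP) or AGGTCA (nuclear receptor half-site), read on either strand. A match of letters is a description and not a bound site.
Intergenic region near Suclg1, chr6:73300777-73300927: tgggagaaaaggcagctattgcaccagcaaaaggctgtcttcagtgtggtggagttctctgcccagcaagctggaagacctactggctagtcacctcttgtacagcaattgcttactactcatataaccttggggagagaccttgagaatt
Intron of Tmem132d, chr5:127991281-127991431: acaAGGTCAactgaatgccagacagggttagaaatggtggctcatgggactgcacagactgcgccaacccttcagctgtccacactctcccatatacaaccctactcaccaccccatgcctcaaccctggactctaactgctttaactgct
Intergenic region near Nmbr, chr10:14898455-14898605: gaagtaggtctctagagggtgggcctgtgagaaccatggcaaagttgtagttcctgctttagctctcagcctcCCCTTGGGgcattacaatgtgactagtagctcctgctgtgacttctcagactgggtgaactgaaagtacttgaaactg
Intron of Nav2, chr7:49058186-49058336: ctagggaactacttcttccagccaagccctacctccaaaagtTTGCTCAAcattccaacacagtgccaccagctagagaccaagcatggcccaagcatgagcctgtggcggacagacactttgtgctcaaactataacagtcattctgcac
Otop1, chr5:38305056-38305206: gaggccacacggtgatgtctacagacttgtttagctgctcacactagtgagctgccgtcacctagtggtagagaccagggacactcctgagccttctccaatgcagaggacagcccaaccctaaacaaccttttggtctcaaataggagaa
Ucp1, chr8:83284632-83284782: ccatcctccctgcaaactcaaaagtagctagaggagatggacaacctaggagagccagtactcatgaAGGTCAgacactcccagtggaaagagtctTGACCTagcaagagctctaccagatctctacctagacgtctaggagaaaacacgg
Prdm16, chr4:154477176-154477326: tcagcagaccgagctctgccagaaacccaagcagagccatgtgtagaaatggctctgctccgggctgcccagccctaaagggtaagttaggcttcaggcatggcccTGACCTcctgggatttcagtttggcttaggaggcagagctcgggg
Kcnk3, chr5:30551296-30551446: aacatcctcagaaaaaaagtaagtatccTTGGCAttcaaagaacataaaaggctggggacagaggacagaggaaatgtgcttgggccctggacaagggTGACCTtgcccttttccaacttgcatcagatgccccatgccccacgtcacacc
The Nmbr region held 1 EBF motif, the Nav2 region 1 C/EBP motif and the Tmem132d region 1 nuclear receptor half-site. At Ucp1 the half-site stood on both strands, 2 times in 151 bases, and at Kcnk3 1 half-site accompanied 1 NFI half-site. The Suclg1 and Otop1 windows held none of the 4 motifs, which says only that these letters are not in these windows.

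Presence in other tissues removed most of the list. Of the 149835 fed regions, 18138 overlapped no deposited peak of another tissue, 7006 of these overlapped any fasting peak of brown adipose, and 5448 overlapped a fasting region at the threshold. The members overlapped 5422 fasting regions. White adipose, the organ most like it, overlapped 82.3% of the 93298 fed regions found in both states and was the only reason for removal of 5423 of them, while no other tissue removed more than 924 on its own. The remaining 87850 both-state regions, which another tissue also listed, serve below as the comparison set. Just inside the threshold, the 5 members nearest to it had fasting -log10 q-values of 2.00148 to 2.00979, and just outside it the 5 nearest regions had 1.98838 to 1.99738. In the fed list the threshold never acted, because its lowest -log10 q-value was 5.26. Depth differed between lists: the genome background was 12.77 tags per summit window in fed brown adipose, the deepest of the 16 libraries, 6.76 in fasting brown adipose, and 2.8 to 10.56 in the libraries of other tissues. The lists of other tissues also end at different lowest -log10 q-values, from 0.849 in fed heart to 4.22 in fed white adipose. A weaker peak below the end of a list could not remove a region. A region missing from another list was therefore not listed there at that depth and list end, and is not shown to be closed. The same rule found 3227 private regions in white adipose, 2763 in heart, 10397 in lung, 11861 in liver, 14685 in muscle, 16236 in spleen and 22221 in kidney.

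The tissue label was checked on marker promoters. All 12 brown adipose and adipocyte markers, among them Ucp1, Cidea, Dio2, Zic1, Lhx8 and Ebf2, had a region within 3000 bp of a start at the threshold in both brown adipose libraries. Their mean promoter rank was 89.0 in fed and 91.4 in fasting brown adipose and 46.9 to 74.1 in the other 14 libraries, where rank is the percentile of a region by p-value within its own list, 100 being the strongest, and a gene without a region counts as 0. Only Ucp1, Cidea, Fabp4 and Pparg ranked higher in both brown adipose libraries than in all the others. Ebf2 ranked 95.4 in fed brown adipose and 99.1 in fed liver, and Lhx8 76.0 in fed brown adipose and 79.8 in fed muscle. Markers of other cells were present in part. Of 8 blood and immune markers 2 had a promoter region in each state, with Ptprc, Csf1r, Adgre1, Cd79a, Ms4a1 and Cd3e at 0. Of 9 skeletal muscle markers 7 had one in fed and 4 in fasting brown adipose, with mean ranks of 49.1 and 35.5 against 90.2 and 89.8 in the muscle libraries. Of 6 sympathetic neuron and Schwann cell markers 6 had one in fed and 5 in fasting tissue, with mean ranks of 71.6 and 56.4. All 5 endothelial markers had one in both states (mean ranks 59.5 and 71.7), as did 4 of 4 stromal markers in fed and 2 of 4 in fasting tissue (70.9 and 47.5). White adipose markers had one in 5 of 7 cases in each state (47.5 and 55.1) and hepatocyte markers in 1 of 4 (22.8 in both). Of the white adipose markers, Lep (95.1 against 89.5), Retn (92.3 against 87.5) and Hoxc8 (88.2 against 77.5) ranked higher in fed brown than in fed white adipose. Hoxc9, Hoxc10, Wt1 and Tcf21 ranked lower. The share of members that came from cells other than brown adipocytes was not tested.

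Genes of heat production stood close to members. Of 20 genes of the thermogenic program 16, or 80% (95% exact binomial interval 56.3% to 94.3%, counting error only, as for every interval below), had a member within 100 kb of a start, against 35.9% of all 21911 protein-coding genes. The 4 without one were Acot11, Cox7a1, Cox8b and Fabp3. By the same count 3 of the 20 had a region private to white adipose (26.8% of all genes) and 10 had one private to muscle (54.1% of all genes). Kidney, with the largest private set, had as many as brown adipose, 16 of 20 (73.2% of all genes), and liver and spleen had 13 each (57.2% and 68.0% of all genes). Counts of genes grow with the size of a set, so the number of regions near the list was also divided by the size of each private set. Near the thermogenic genes stood 60 members, or 11.01 per 1000, against 1.24 per 1000 in white adipose, 2.02 in liver, 2.04 in muscle, 2.34 in spleen, 2.02 in lung, 4.71 in heart and 4.95 in kidney. The lists were written with earlier results of these data known, so these counts describe them and support nothing further.

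Ucp1 had 7 members within 100 kb, all between -17641 and 7117 bp of its start, where negative distances are upstream. The strongest, at chr8:83284306-83284833 and -5645 bp, ranked 89.7 in fed and 91.2 in fasting mice, with 611 tags at its summit where 107 were expected in fed and 123 where 17.6 were expected in fasting tissue. Its neighbour at -4528 bp ranked 81.5 and 83.9 (545 tags against 147 expected in fed, 88 against 19.7 in fasting). Both lie upstream of the promoter, between genes, and their ranks differed little between the states. Farther upstream, the member at -10853 bp ranked 81.5 in fed and 75.5 in fasting, and the one at -17641 bp, in a UTR of the neighbouring gene Tbc1d9, ranked 76.2 and 75.5. Close to the start, the member at -658 bp ranked 59.6 and 66.9. Inside the gene, the intronic members at 1736 and 7117 bp ranked 39.2 and 38.5, and 21.7 and 36.3. Tags at those 3 regions were many, between 207 and 396 in fed tissue, but so were the expected tags of 125 to 181, against a genome background of 12.77. These 3 stood out from their surroundings by folds of 1.65 to 2.18 in fed tissue, and the 4 members farther upstream by 3.70 to 5.81.

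The other thermogenic genes fell into those with strong and those with weak members. Otop1, a proton channel gene, had 4 members, of which the one at chr5:38305002-38305717 ranked 89.2 in fed and 91.7 in fasting. It lies 19108 bp downstream of the Otop1 start, and the nearest protein-coding start is that of Drd5. Kcnk3, which codes for a potassium channel of brown adipocytes, had 4 members, the strongest at chr5:30551123-30551695 with ranks of 83.0 and 91.5. That region lies at -36799 bp from Kcnk3 and at -5535 bp from Cib4, the nearest protein-coding gene. Kcnk3 was the nearest protein-coding gene to none of its 4. Bmp8b, a secreted factor that raises the response of brown fat to nerves, had 1 member at 42644 bp (84.6 and 89.0), with Hpcal4 as the nearest protein-coding gene. Cpt1b, the muscle-type enzyme that admits fatty acids to mitochondria, had 4, one of them in its own coding exon at 2658 bp (83.6 and 88.9). Dio2, the enzyme that activates thyroid hormone within the cell, had 3 members more than 91 kb downstream, the strongest with ranks of 79.0 and 86.4. Each of these 5 genes thus had a member in the upper part of both lists. Prdm16, a coregulator that holds brown adipocytes in their fate, had 11 members with fed ranks from 1.75 to 88.8. The members of the remaining genes ranked lower in the fed list. Pank1, which makes a precursor of coenzyme A, had 7, all higher in the fasting list, with fed ranks of 20.4 to 71.6 and fasting ranks of 48.0 to 84.2. Most members ranked higher in the fasting list, and 31.5% of all members ranked lower there. Cidea, a lipid droplet protein gene, had 6 between 3253 bp and 24.9 kb downstream, with fed ranks of 8.61 to 56.8 and fasting ranks of 37.0 to 65.8. Ppara, the receptor that drives fatty acid oxidation, had 5, with fed ranks of 18.3 to 49.0, and was the nearest protein-coding gene to 1 of them. Elovl3, a fatty acid elongase gene, had 3 with fed ranks of 28.7 to 43.7. One member each stood near Ppargc1a (62.5 and 65.0), Adrb3 (59.5 and 62.3), Slc27a2 (40.9 and 61.9), Gk (34.2 and 37.8) and Esrrg (33.2 and 54.5). Within 100 kb Ppargc1a, the coactivator of mitochondrial genes, thus had a single member at -5294 bp, but it was the nearest protein-coding gene to 12 members in all, at distances of up to 444933 bp.

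**Figure D1:**
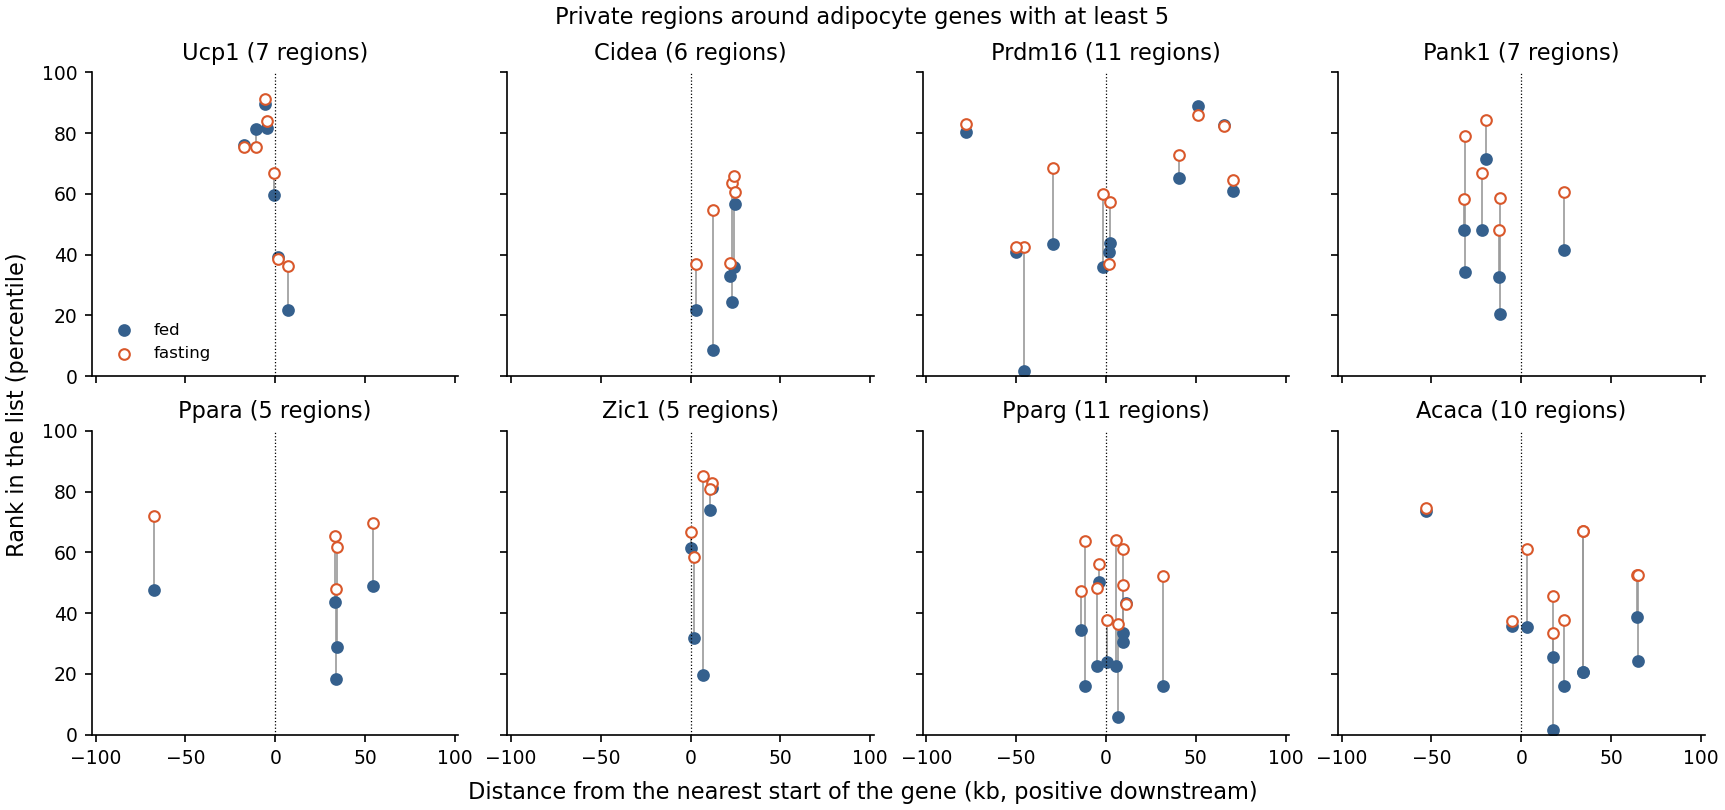
Rank of each private region in the fed list (filled) and the fasting list (open, joined by a line) against its distance in kb from the nearest start of the gene, for the 8 genes of the thermogenic, brown factor and general adipocyte lists with at least 5 members. Of the 7 Ucp1 members 5 lie upstream and 2 downstream, with the highest ranks nearest to -5 kb, whereas those of Pparg rank no higher than 50.1 in the fed list.

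Of 14 genes for brown adipocyte transcription factors 9 had a member (64.3%, against 35.9% of all genes), as did 9 in spleen and kidney, 11 in muscle and lung and 8 in liver for their own private regions. Hlx, a homeobox gene, had the strongest, at chr1:184763948-184764338 and -31481 bp with ranks of 88.7 and 93.2. Lhx8, a homeobox marker of brown fat, had 4, up to ranks of 87.3 and 90.1 within its own intron. Zic1, a zinc finger gene that marks the classical brown depot, had 5 between 308 and 12149 bp of its start, up to 81.3 and 82.8. Zic1 was the nearest protein-coding gene to 1 of them. Esrra, a nuclear receptor of mitochondrial genes, had 3 (up to 62.9 in fed), Nfia 3 (up to 43.0), Ebf2 2 (up to 59.5), Mecom 1 (59.3) and Irf4 1 (1.69). Eya1, Gata6, Klf11, Tbx15 and Zfp516 had none. Per 1000 private regions the list had 4.22 in brown adipose, close to the 4.15 of muscle and above the 1.24 of white adipose.

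Among 20 general adipocyte genes 16 had a member (80%, against 35.9% of all genes), while liver and kidney had 18 and lung 17 for their larger private sets. The list had 9.54 regions per 1000 in brown adipose against 6.20 in white adipose and 1.45 to 4.23 in the other tissues. Pparg, the master regulator of fat cells, had 11 members between -14099 and 31617 bp of its starts. All 11 ranked between 5.88 and 50.1 in the fed list and between 36.3 and 63.9 in the fasting list, so this locus held many members and none that was strong. Cidec, a lipid droplet gene, had 3, the strongest in its intron with ranks of 84.0 and 89.4. Cebpa, which acts with Pparg, had 4 (up to 74.5 in fed), Pnpla2, the first lipase of lipolysis, 2 (up to 73.9), Lipe, the next lipase, 3 (up to 75.6), and Plin1, the coat of the droplet, 3 (up to 64.7). The nearest members of Pnpla2 and Lipe lay 67504 and 49146 bp from a start. Acaca, which makes malonyl-CoA for fatty acid synthesis, had 10, from 1.51 to 73.6. Lpl had 4 (up to 29.2), Cfd 2 (66.3), Cd36 2 (51.8), Dgat2 2 (51.9), Mlxipl 2 (17.6), and Fasn (52.5), Adipoq (36.8), Aqp7 (32.5) and Agpat2 (2.29) had 1 each. The members of Fasn, Aqp7 and Agpat2 lay at -55328, -43877 and 48798 bp from a start. Car3, Fabp4, Gpd1 and Scd1 had none. Of 12 white adipose genes 6 had a member (50%, against 35.9% of all genes), as did 6 for the regions private to white adipose. The 6 with a member were Lep (18.2 in fed), Retn (29.4), Nnat (up to 52.0) and Hoxc8, Hoxc9 and Hoxc10, which shared 1 member (34.7). That list had 0.918 regions per 1000 in brown adipose and 3.10 in white adipose.

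The genes that carry the nerve signal were also close to members. Of 15 genes of adrenergic and cAMP signalling 11 had one (73.3%, against 35.9% of all genes), as many as in muscle and kidney and 1 more than in spleen. Near them stood 41 members or 7.53 per 1000, against 5.79 in muscle and 0.927 to 3.02 in the other tissues. Prkar2b, a regulatory subunit of protein kinase A, had 9, up to ranks of 71.5 and 72.6. Adra1a, an alpha adrenergic receptor, had 6, up to 70.02 in the fed and 81.03 in the fasting list. Atf2 had 2 and Arrb1 1, whose high fasting rank of 94.5 comes from a wide fasting region that other tissues also list. Fatty acid oxidation followed with 12 of 16 genes, or 75% against 35.9% of all genes (kidney had 16, spleen 15 and liver 13). It had 4.96 per 1000 against 1.54 to 3.79 elsewhere, led by Cpt1b, Acadm (up to 68.0 and 80.3), Acsl5 and Ech1. Secreted factors of brown fat had 8 of 15 genes (53.3%, against 35.9% of all genes), where liver, spleen and kidney had 12 each. They had 2.94 per 1000, below the 3.71 of liver. Creatine and calcium cycling had 7 of 12 genes (58.3%, against 35.9% of all genes), where kidney had 10. It had 2.57 per 1000, against 18.8 in heart. The lists of other cells had between 0.734 and 2.57 regions per 1000. Skeletal muscle genes had 1.10 per 1000 (5 of 15 genes, or 33.3% against 35.9% of all genes), led by the member of ranks 90.2 and 93.5 at 40889 bp from Mb. Endothelial genes had 1.65 (6 of 15, 40%), blood and immune genes 0.734 (4 of 15, 26.7%) and stromal genes 1.65 (5 of 15, 33.3%). Hepatocyte genes had 2.02 per 1000 (5 of 15, 33.3%), against 12.2 per 1000 in liver. The share of all genes was 35.9%. Sympathetic neuron and Schwann cell genes had 2.57 per 1000 (0.93 to 2.02 in the other tissues). With 5 of 15 genes, or 33.3%, that list was at the 35.9% of all genes, and liver, spleen and kidney had 10 of 15 each. Its members stood near Mbp, Dbh and Sox10 among others. Dbh alone had 5 of the 14 members with fed ranks of 62.1 to 83.1.

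**Figure D2:**
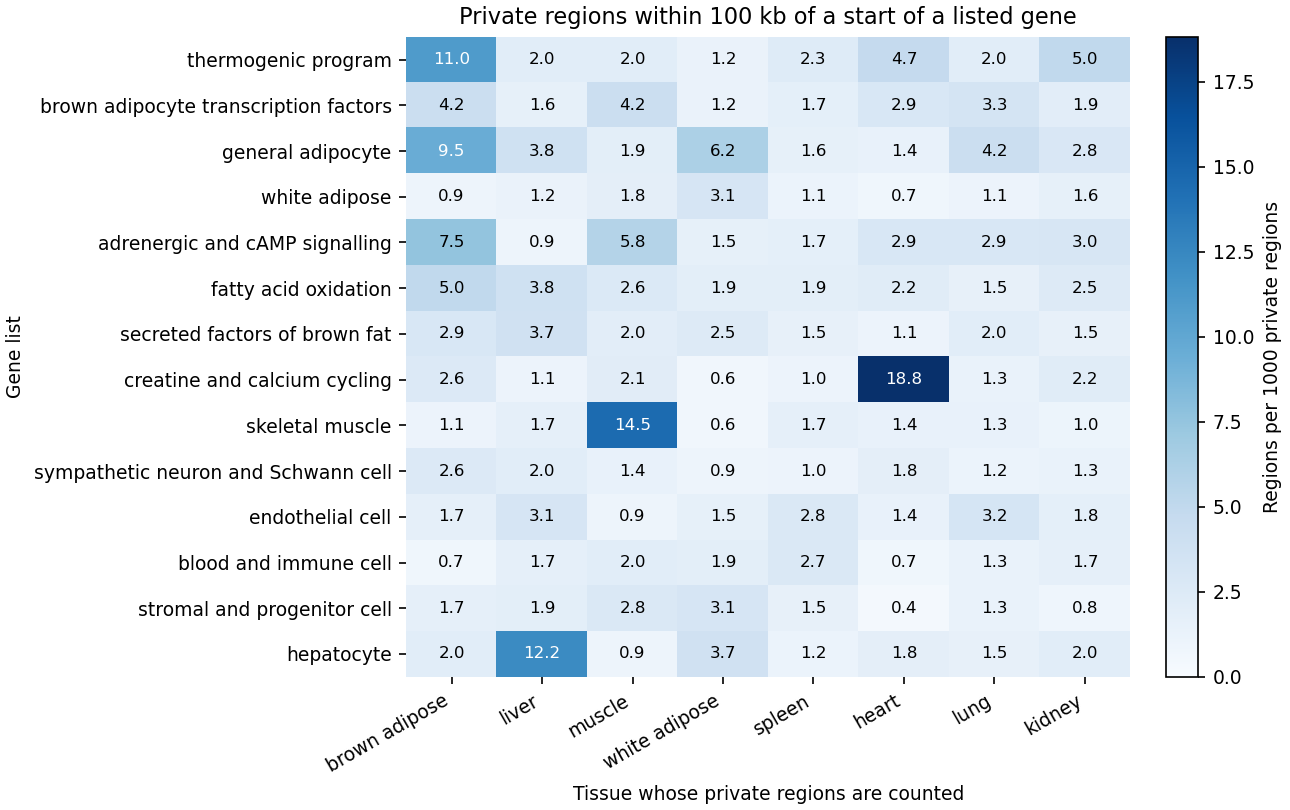
Number of private regions within 100 kb of a start of a listed gene per 1000 private regions, for 14 gene lists (rows) and 8 tissues (columns). Brown adipose has 11.01 for the thermogenic list and 9.54 for the general adipocyte list, while muscle has 14.5 for the skeletal muscle list and liver 12.2 for the hepatocyte list.

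The strongest members were not near the best known genes. By mean rank of both states the first was an intergenic region at chr6:73300530-73301146, 40492 bp from the start of Suclg1, the nearest protein-coding gene, with ranks of 97.6 and 95.9 and with 652 tags where 35.7 were expected in fed tissue and 139 where 8.64 were expected in fasting tissue. The second lay in an intron of Tmem132d at chr5:127990676-127991638 (96.4 and 96.5), with 525 tags where 25.1 were expected. The next were an intergenic region 138311 bp from Nmbr (94.4 and 95.6), an intron of Nav2 (95.01 and 94.5) and a region 101945 bp from Uchl5 (93.9 and 95.5). After these came a region on chromosome 18 at -514865 bp from Zfp608 (94.3 and 94.5), an intron of Sgms1 (93.6 and 94.9), regions at -4194 bp from Mrps36 (92.6 and 95.2) and at -7372 bp from Atl2 (92.5 and 95.2), and one 93173 bp from Fgf20 (93.7 and 93.5). The 10 were thus high in both lists, and each lay over 4 kb from the nearest start. They were the exception, however. Of all members 4 ranked at 95 or above in the fed list, or 0.0734%, against 8.52% of the comparison set, and 13.8% ranked at 75 or above against 41.6%. The median member ranked 53.1 in fed and 60.4 in fasting tissue, against 69.7 and 75.5. Members were also shorter, with a median length of 244 bp against 399 bp, and 60.8% had a single summit against 35.3%. The longest were 1427 bp near Paqr9, 1341 bp near Fgf20 (with 8 summits) and 1331 bp near Zfp831. At their summits the median member had 105 tags in fed tissue (quartiles 69 and 166) and 30 in fasting tissue (23 and 44).

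Most members lay away from gene starts. Of the 5448, 1188 had their summit within 3000 bp of an annotated start, or 21.8% (20.7% to 22.9%), against 35.7% of all fed regions and 39.4% of the comparison set. The difference was widest right at the start, where 4.15% of members and 21.4% of the comparison set lay within 500 bp. It was not particular to brown adipose, since the private regions of the other 7 tissues had shares of 19.7% to 23.2%. Among regions of like strength the shares also differed. At mean ranks of 80 to 100 the share was 18.8% of members and 52.1% of the comparison set, and at 40 to 60 it was 23.2% and 32.1%. The median distance was 11209 bp, and 13.7% of members were over 50 kb from any start against 6.01%. Introns held 53.7% of members, intergenic DNA 38.1%, UTRs 2.59%, coding exons 2.24% and exons outside coding sequence and UTRs, of any gene type, 3.41%. Of the members near a start 778 had a protein-coding gene as the nearest. The strongest of these lay near Ampd2 (90.2 and 91.8), a gene for AMP deaminase, Syt2, Rnf19b and Ebf3, a relative of Ebf2 (85.9 and 91.3 at -2700 bp). Among chromosomes the members made up 4.38% of the both-state regions of chromosome 11 and 9.54% of those of chromosome X, and the other chromosomes lay between 4.50% and 6.66%.

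**Figure D3:**
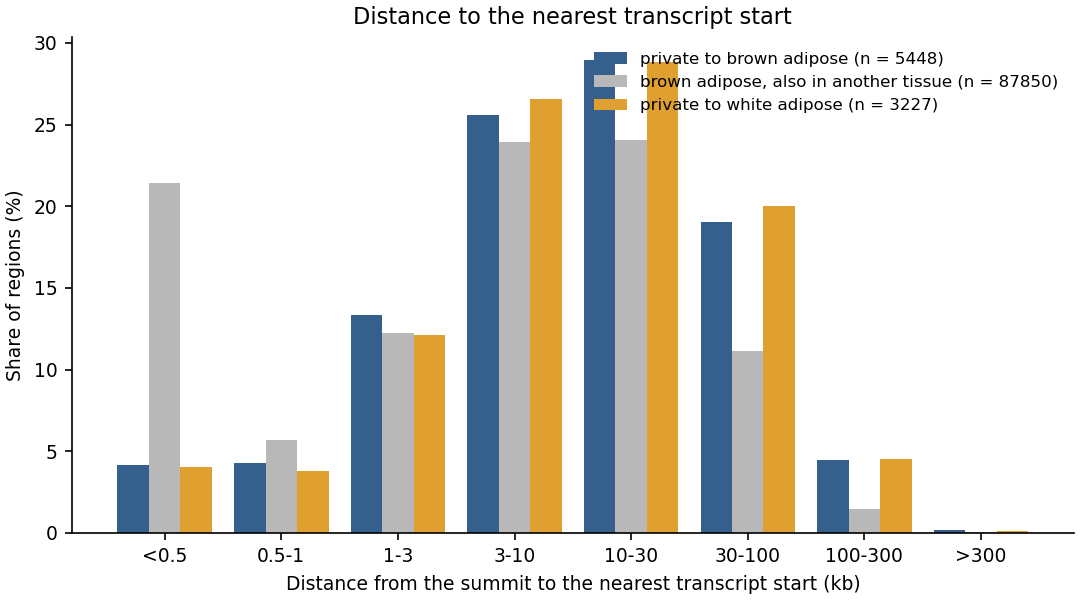
Share of regions in each class of distance in kb from the summit to the nearest transcript start, for members (blue), brown adipose regions also listed in another tissue (grey) and regions private to white adipose (orange). Below 0.5 kb stand 4.15% of members and 21.4% of the grey set, and the white adipose bars follow those of the members.

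Members often stood in groups. Another member lay within 50 kb of 2841 members, or 52.1% (50.8% to 53.5%), and within 10 kb of 26.2%. The share was lower in both smaller private sets (37.7% in white adipose and 38.9% in heart) and higher in the 5 larger ones (65.0% in liver to 79.7% in muscle), so it cannot be told apart from the size of the set. Joined at 50 kb, the members formed 3672 groups, of which 2607 were single members and 76 held at least 5. The largest had 15 members over 167 kb at Adam12, a metalloprotease gene, where 29 both-state regions lay in all. Its fed ranks ran from 1.32 to 81.6, 12 of 15 ranked higher in the fasting list and 4 held an EBF motif. Over all members 31.5% ranked lower in the fasting list and 15.4% held an EBF motif. Most regions rank higher in fasting, and the lists end at different q-values, as described below. Counts of members higher in fasting therefore do not set a group apart by themselves. Next came 13 at Slc24a3, a calcium exchanger gene (5.03 to 83.6 in fed, 10 of 13 higher in fasting), 11 at Pparg (10 of 11 higher) and 10 at Ntrk2, a neurotrophin receptor gene (11.3 to 82.7, 9 of 10 higher). Groups of 9 had Prkar2b, Gas1, Herc3 with Fam13a, and Rsl24d1 as nearby protein-coding genes. The members nearest to Rsl24d1 lay 108709 to 241631 bp from its start, and those nearest to Gas1 34729 to 173833 bp. The Rsl24d1 group differed in being strong, with fed ranks of 56.3 to 91.0 and with 9 of the 10 both-state regions in its 81.6 kb being members, and 4 of its 9 ranked higher in fasting. Counted by the nearest protein-coding start, 3211 genes had a member, 144 had at least 5 and 14 at least 10. Adam12 led with 17, then Zeb2 with 16 (all at -56944 bp or farther upstream), Slc24a3 and Ntrk2 with 14, Ntrk3 with 13, Ppargc1a and Tns1 with 12, Angpt1 and Pparg with 11, and Prdm16, Cerkl, Dlc1, Rsl24d1 and Zfhx3 with 10 each. White adipose had between 0 and 3 private regions nearest to each of these 14 genes, but 5 of the 14 had as many or more in another tissue, which were Zeb2 (17 in spleen), Ppargc1a (16 in kidney), Tns1 (18 in kidney), Prdm16 (11 in kidney) and Zfhx3 (13 in liver).

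Fed and fasting ranks of members were less alike than those of the comparison set. Both rest on 1 library per state, and fed tissue was the deeper one, so no test was possible. Of the members 1718 had a lower rank in the fasting list, or 31.5% (30.3% to 32.8%), against 27.7% of the comparison set, and 19.9% ranked over 25 points higher against 11.7%. The rule fixes part of these shares. A fasting -log10 q-value of at least 2 puts regions of both sets at a fasting rank of about 30.6 or higher. Fed ranks have no such floor, so regions with the lowest fed ranks had to rise. The fed list ends at a -log10 q-value of 5.26 and the fasting list at 0.649, so ranks in both are not on the same base. Most regions of both sets rank higher in fasting. The parts of the list ends, of the threshold and of depth in this were not tested. When the 93298 regions of both states were ranked among themselves, a scale chosen after seeing the data, 54.6% of members and 51.3% of the comparison set stood lower in fasting. Ranked only among regions at the threshold, 67.3% of members did. The direction for members as a whole therefore depends on the base of the rank.

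At equal fed rank above 40 members stood lower in fasting more often. From fed rank 60 to 80, 52.3% of 1661 members ranked lower in fasting against 33.8% of 26521 comparison regions, and from 80 to 100 it was 62.3% of 430 against 35.9% of 29514. On the base of both-state regions the shares were 72.8% against 57.4% and 83.0% against 59.8%. Below fed rank 40 both sets were nearly alike (3.91% and 3.72% from 20 to 40). From fed rank 0 to 20 the median rise was 39.6 points in members and 39.4 in the comparison set. Spearman's rho between fed and fasting rank was 0.531 over the 5448 members and 0.846 over the 87850 other regions, as a description over regions that share both libraries and differ in strength and length. Members were also the weaker set, with a median fed rank of 53.1 against 69.7. The part of this, of depth and of peak width in the difference was not tested.

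**Figure D4:**
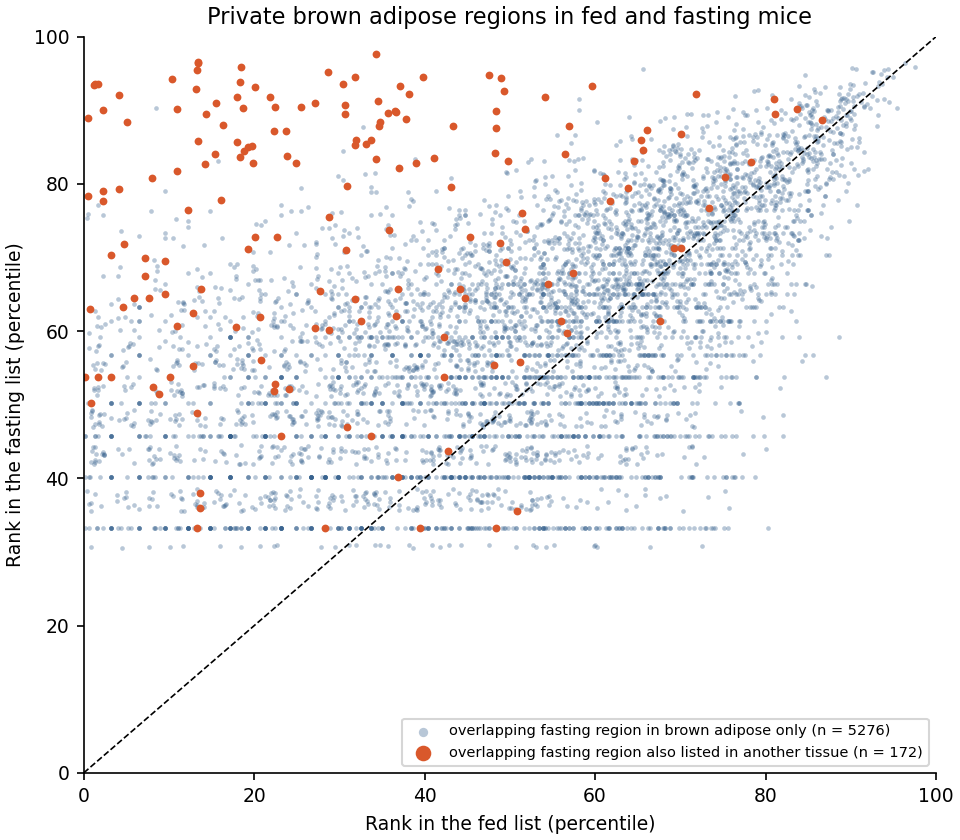
Percentile rank of each of the 5448 members in the fed list (x axis) and in the fasting list (y axis), with the line of equal rank dashed. Blue points are the 5276 members whose fasting partner was also free of other tissues and orange points the 172 whose partner another tissue listed, which gather at high fasting and low fed rank; horizontal rows are fasting regions with the same small number of tags.

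Many of the largest rises were in members whose fasting partner another tissue also listed. In 172 members the fasting region that they overlapped was itself overlapped by a peak of another tissue, and in 133 of them it also covered another fed region. The 3 with the largest rise, at chr9:33152781-33152947 (rank 1.25 in fed and 93.5 in fasting), chr18:85473525-85473597 (1.35 and 93.6) and chr17:13705226-13705305 (1.61 and 93.6), were of this kind, as were the first 10 and 60 of the first 100. These 3 were 73 to 167 bp long, and each stood beside a strong fed region that the same fasting region covered. The members of this kind had a median rank of 28.8 in fed and 81.3 in fasting, and one of them gave Zic1 (85.2), Lpl (88.9) and Nrg4 (84.5) their highest fasting rank. Without them 5276 members remained and 32.5% ranked lower in fasting. The largest falls were free of this. Among them were 412 bp at -4100 bp from Tmem200c (80.3 in fed and 33.3 in fasting) and 719 bp in an intron of Gm34004 (75.6 and 33.3). Fasting tags at these places were few. At Tmem200c 205 tags were found where 19.9 were expected in fed tissue and 18 where 6.76 were expected in fasting tissue. At Gm34004 there were 145 where 12.8 were expected in fed tissue, and 18 where 6.76 were in fasting tissue. Both thus had 18 tags in fasting, the fewest of any member.

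The letters around the summits were searched for 26 motifs. Within 100 bp of the summit on both strands, 840 members or 15.4% (14.5% to 16.4%) held the EBF motif CCCNNGGG, against 11.6% of the comparison set and 4.05% to 8.16% of the private regions of the other 7 tissues. EBF2 is the early B-cell factor that opens brown adipocyte enhancers. The 8.16% was that of spleen. Whether any factor binds these letters was not tested in either tissue. White adipose had 6.63%. With the members cut into 4 equal parts by mean rank, the share was 11.2% in the weakest part, then 14.7%, 16.5%, and 19.3% in the strongest. At equal mean rank it was 20.1% of members and 13.98% of the comparison set from 80 to 100, and 10.54% and 9.13% below 40. Mean GC content in the window was 46.9% in members, 53.0% in the comparison set and 45.9% to 50.9% in the other private sets. The EBF motif was 35 bp from the summit in the median and within 25 bp in 37.9% of the 840.

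TTGGCA, the NFI half-site, stood in 25.9% of members, 19.2% of the comparison set and 9.23% to 17.8% of the other private sets, the highest being white adipose. The full NFI site TGGCNNNNNGCCA went the other way against the comparison set, with 1.28% of members and 1.75% of that set, and stood in 0.499% to 1.08% of the other private sets. NFIA, a factor of this family, opens chromatin early in brown adipocyte differentiation. Other motifs were shared with other tissues or rare. The nuclear receptor half-site AGGTCA stood in 24.7% of members and 17.4% of the comparison set, but in 25.2% of regions private to liver, and in 11.6% of those private to white adipose. TCAAGGTCA, the site of estrogen-related receptors that contains this half-site, was rare, in 1.52% of members (1.22% to 1.89%) and 0.614% of the comparison set. It stood in 0.155% of white adipose and 1.01% of heart private regions, the lowest and highest of the other tissues. The ratio of members to the comparison set, 2.48, was the highest of all motifs searched. The C/EBP motif TTGCNNAA stood in 17.5% of members and 13.1% of the comparison set, and was more frequent in white adipose (24.4%). Among all motifs searched, members had the lowest share of the 8 tissues for the glucocorticoid receptor motif GNACANNNTGTNC. It was 0.202%, against 0.394% in lung, the next lowest, and 2.32% in white adipose. Members were also lowest for the CREB motif TGACGTCA (0.0918%, against 0.109% in heart) and the ETS motif CCGGAAG (0.624%, against 0.657% in kidney). The same held for the GATA motif AGATAAG (1.36%, against 1.60% in kidney) and the RUNX motif TGTGGTT (3.73%, against 3.81% in muscle). For CREB, ETS, GATA and RUNX the next lowest share lay within the exact binomial interval of members. The lowest place for those motifs is thus within counting error. The CTCF motif CCANNAGNNGGC stood in 1.19% of members and 8.42% of the comparison set, and in 1.16% to 1.80% of the other private sets. Of the EBF, NFI, C/EBP and nuclear receptor motifs, 38.4% of members held none, 42.8% held 1, 15.9% held 2 and 2.79% held 3. Members with an EBF motif had a median mean rank of 59.0 against 54.6 without it, and their rank in the list was 3.57 points higher in fasting in the median against 8.08 without it. On the base of both-state regions the direction turned, and their place fell by 4.83 points, where that of members without it fell by 1.37 points.

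**Figure D5:**
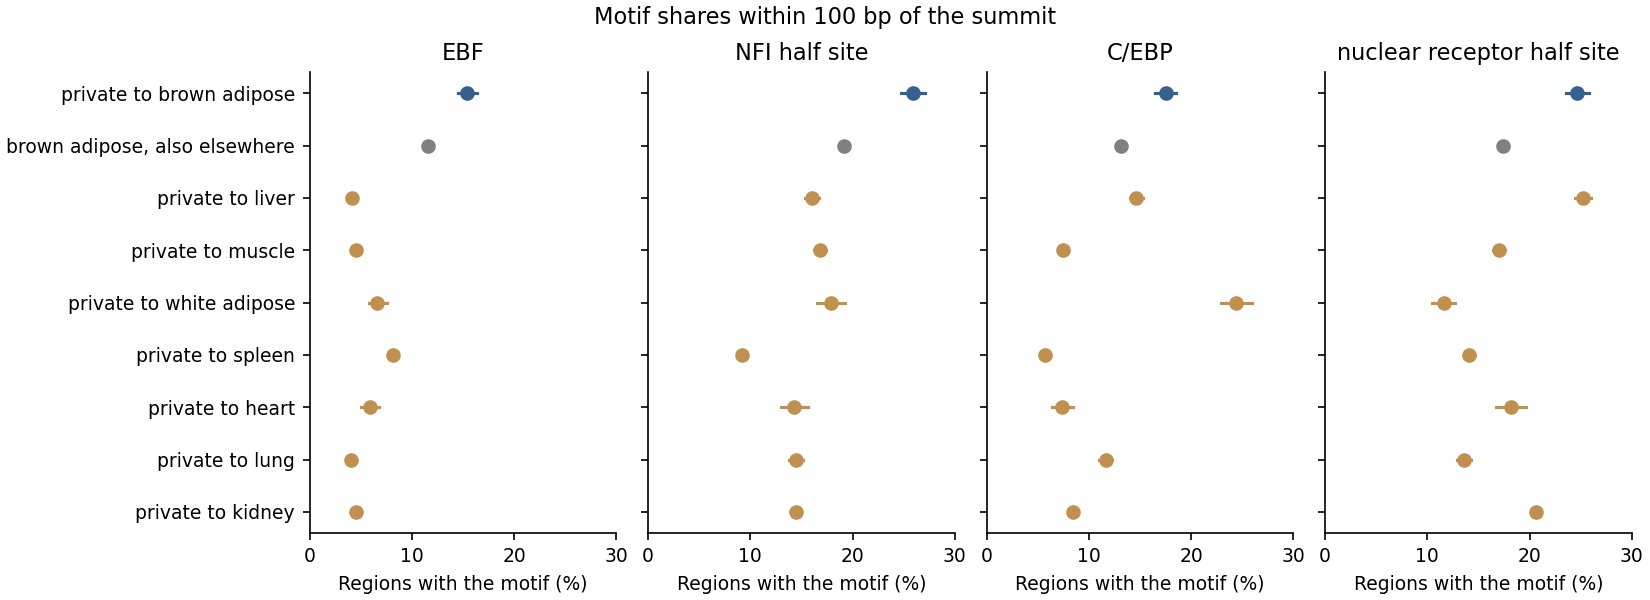
Share of regions with each of 4 motifs within 100 bp of the summit, for members (blue), brown adipose regions also listed in another tissue (grey) and the private regions of 7 other tissues (tan); lines are 95% exact binomial intervals. Members have the highest share for EBF at 15.4% and for the NFI half-site at 25.9%, while white adipose leads for C/EBP at 24.4% and liver stands at 25.2% for the nuclear receptor half-site.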

How the data were processed

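ATAC-Seq peak lists of 16 libraries (8 tissues, fed or fasting, 1 library each from 3 pooled mice) were analysed. According to the labels and the published methods, the authors aligned trimmed reads to GRCm38 with Bowtie2, removed unmapped and duplicate reads and called peaks with MACS2. The fold enrichment, a deposited ratio, sets tags at the summit against the tags expected from the same library. The deposited -log10 p-value and -log10 q-value are those of the authors' caller. None of these is scaled between libraries, so they were used only within a list. The lists end at different lowest -log10 q-values, from 0.649 to 5.26.

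Rows sharing their coordinates were merged into 1 region that kept its smallest p-value, and regions were ranked by p-value as a percentile of the list. A member's fasting values are those of the strongest fasting region it overlapped. Tags and expected tags were solved from fold and p-value, and 100% of members gave whole tags within 0.01. Distances run from the fed summit to the nearest of 132629 starts of GENCODE vM21, while the release used by the study was not used here. Coordinates count from 1. Groups join summits within 50 kb, and genes count members within 100 kb of any start. Motifs were read within 100 bp of the summit in the RefSeq GRCm38 genome. Exact binomial intervals (Clopper-Pearson, 95%) hold counting error alone, since regions of 1 library are not replicates.

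The members and the gene lists were chosen with earlier results of these data known. Named regions are the 10 of highest mean rank, the 3 largest rises and falls of rank, the 3 longest and the largest groups. Named genes are all with a member in the thermogenic, brown factor, general adipocyte and white adipose lists, and up to 4 of highest mean rank in each other list. A few items that these rules name are not reported here. Overlap, cluster, spacing, motif and tag functions were tested on simulated data. Alternatives were thresholds, overlap, distance to peaks of other tissues, unit, list length, windows and the base of the rank. Python 3.11.15, pandas 2.3.3, numpy 2.4.6, scipy 1.17.1 and pysam 0.24.0 were used.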

Additional observations from a re-analysis of the deposited data

How the results depend on the processing

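No paired analysis was possible because each tissue and state has 1 library. The number of members stayed within 1.5 times of 5448 in 5 of 8 alternatives. It was 2443 with a -log10 q-value of at least 6 in both states, 1918 when no peak of another tissue was allowed within 1000 bp, and 769 from the 50000 strongest regions of each brown adipose list. In these same 3 settings another member lay within 50 kb of 36.8%, 32.9% and 20.9%, the share of thermogenic genes with a member was 55%, 55% and 40%, and the EBF share was 16.9%, 14.4% and 19.9%. The share near a start was 14.5% and 19.1% in the last 2 of them, 8.44% with a window of 1000 bp and 15.0147% with protein-coding starts only. The share with another member nearby was 44.4% when an overlap of 0.5 of both lengths was asked for, 54.7% when only peaks of other tissues at the threshold counted, 58.8% with fasting regions as the unit and 26.2% at 10 kb. The share with a lower rank in fasting had the widest range: 23.3% at the stricter q-value, 26.9% with the longer overlap, 38.8% with the 1000 bp margin, 41.4% with fasting regions as the unit, 36.3% by fold, 54.6% among regions of both states and 67.3% within regions at the threshold. The EBF share was 9.91% within 50 bp of the summit.

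Absence from a list means not listed at that depth and at the q-value where the list ends, fed brown adipose being the deepest library. The number of members thus depends on the depth and the list ends of the other tissues. Without replicate libraries no difference between tissues or states has an error beyond counting. The place among both-state regions and the set without shared fasting partners were added after seeing the data.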

Other observations

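Regions of brown adipose that no other tissue listed were also found in 1 state only. In fed tissue 11132 such regions overlapped no fasting peak, with a median rank of 20.7 and a highest rank of 81.6, that of a region at -5405 bp from Upk2. In fasting tissue 9470 regions at the threshold overlapped no fed peak, with a median rank of 40.2. The highest, 86.1, lay in an intron of non-coding genes at -18096 bp from Fermt2, and a region in an intron of Per1, a clock gene, 1413 bp from its start, ranked 78.5. EBF motifs stood in 11.7% of the fed-only and 6.05% of the fasting-only regions. The fed library was the deeper one, and the part of depth in these counts was not tested.

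Among members whose fasting partner was free of other tissues, the largest rise of rank was at -98513 bp from Tmem45b (8.45 in fed and 90.3 in fasting), a region of 73 bp chosen after its values were seen.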
